A study of Homo sapiens with 9 samples.

Results

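The iron mRNAs examined here were FTH1, FTL, TFRC, SLC11A2, ACO1 and IREB2, 6 of the 21986 genes that held a merged peak in at least 1 antibody-barcode eCLIP (ABC) library. They were chosen by name, and a peak was assigned to a gene when it overlapped the gene on its strand (GENCODE, GRCh38). Of 2478204 merged peaks in all libraries, 1710 lay on these genes: 198 on FTH1, 186 on FTL, 677 on TFRC, 155 on SLC11A2, 78 on ACO1 and 416 on IREB2. ABC joins crosslinked RNA to a DNA tag on the antibody that holds its RNA-binding protein (RBP), so that several RBPs can be read from 1 tube. The 54 libraries were 10plex pools of DDX3, EIF3G, FAM120A, IGF2BP2, LIN28B, PRPF8, PUM2, RBFOX2, SF3B4 and ZC3H11A, made in K562 cells (3 pools) and in HEK293 cells (2 pools), and 2 singleplex replicates for each of RBFOX2 (HEK293 cells) and SLBP (K562 cells). K562 is an erythroid leukaemia line and HEK293 a line from human embryonic kidney, which the labels call HEK293T. The labels name no edited gene, transgene or agent that alters iron in either line, and each RBP was pulled down through an antibody against it.

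Iron-regulatory proteins, the products of ACO1 and IREB2, bind a hairpin called the iron-responsive element (IRE) when iron is scarce. In the ferritin mRNAs FTH1 and FTL, which encode the heavy and light chains of the iron storage shell, the hairpin lies in the 5′ UTR, and its occupancy blocks translation. In TFRC, the transferrin receptor that brings iron into the cell, several such hairpins lie in the 3′ UTR, where occupancy protects the mRNA from decay, and SLC11A2, an importer of ferrous iron, carries one at its 3′ end in some isoforms.

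IRE sequences were read from GRCh38 because the positions of the peaks are given relative to them. The search asked for a C, 5 letters of any kind, CAGTG and 6 further letters on the sense strand of UTR exons, with at most 1 of the 5 pairs of the upper stem unpaired. Such a match was present in 0.566% of 18211 5′ UTRs and 4.38% of 18756 3′ UTRs, and with every pair formed in 0.104% and 0.645%. Each ferritin 5′ UTR held 1 match, starting at base 39 of the FTH1 mRNA and base 33 of the FTL mRNA, and the TFRC 3′ UTR held 4 between its bases 944 and 1460, all fully paired. The capitals mark the bulged C and the 6 letters of the loop, which is closed by the stem.
FTH1, chr11:61967574-61967602, minus strand: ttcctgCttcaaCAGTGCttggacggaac
FTL, chr19:48965335-48965363, plus strand: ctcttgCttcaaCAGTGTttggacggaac
TFRC match 1, chr3:196050979-196051007, minus strand: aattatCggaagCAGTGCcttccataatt
TFRC match 2, chr3:196050575-196050603, minus strand: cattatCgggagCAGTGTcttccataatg
TFRC match 3, chr3:196050510-196050538, minus strand: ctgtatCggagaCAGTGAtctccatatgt
TFRC match 4, chr3:196050463-196050491, minus strand: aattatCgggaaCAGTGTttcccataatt
SLC11A2, chr12:50988269-50988297, minus strand: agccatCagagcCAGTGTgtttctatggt

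The SLC11A2 match, at base 37 of the 3′ UTR of its reference (MANE) transcript, had 1 pair unformed. The 3′ UTRs of ACO1 and IREB2 also held a match with 1 pair unformed, which is a match of letters and nothing more. A further TFRC hairpin with the loop CAGAG, not covered by the search letters, was added after the peaks had been seen, at base 894 of the 3′ UTR (chr3:196051029-196051057, atttatCagtgaCAGAGTtcactataaat). How far reads over these hairpins can be placed differed between the genes, since the authors removed reads that map to several places. Words of 30 letters of the spliced mRNA that hold the 17 letters of a match were counted, 14 for each match. None of those of FTH1 occurred once in the genome (up to 8 copies), and none of those of FTL did (up to 3 copies). All 14 did for each TFRC match and for SLC11A2. Over whole regions, 43.3% of the words of the FTH1 5′ UTR, 11.1% of its coding sequence (CDS) and 70.5% of its 3′ UTR occurred once, and 59.2%, 47.4% and 42.1% of those of FTL. Levels within the ferritins therefore compare the same stretch between libraries, not 1 stretch with another. Peak reads placed on the 25 annotated FTH1 pseudogenes numbered 98 in the K562 pools, 1.08% of those on FTH1, and 7 on the 16 of FTL. Most of the 98 were reads of LIN28B, with 10, 32 and 28 in the 3 pools against 131, 300 and 102 on FTH1.

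Levels are given as reads in merged peaks on the gene per 1000000 reads in all merged peaks of the library (rpm), without division by length, so they were compared between libraries and not between genes. The reads in merged peaks ran from 13277 to 2190943 per library in the K562 pools (median 196336), from 21066 to 2582043 in the HEK293 pools (median 393434) and from 19207 to 4626690 in singleplex ABC, with PUM2 the shallowest of each pool. A level of 0 means that no peak was called, since reads outside called peaks were not listed, and no fold is given against it. The labels give the HEK293 pools a second cell line entry, K562, and spell the line of K562 pool 3 as K563. The K562 markers GATA1, TAL1, LMO2, HBG1, HBG2, HBE1 and HBZ had a peak in each K562 pool, and GATA1, TAL1, HBG1 and HBZ had none in either HEK293 pool. HBG2 and HBE1 did have a peak in both HEK293 pools, and LMO2 in HEK293 pool 1. Over the K562 marker list, levels summed to 2312 to 3219 rpm in the K562 pools and to 5.00 and 0.652 rpm in the HEK293 pools. The 5 HEK293 markers (PAX2, NEFL, NEFM, INA and LHX1) summed to 194 and 206 rpm in the HEK293 pools and to 7.55 to 25.2 rpm in the K562 pools, where INA, LHX1 and NEFL had none.

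FTH1 had a peak in all 54 libraries, FTL in 50, TFRC in 45, IREB2 in 44, SLC11A2 in 30 and ACO1 in 19. Over the 30 libraries of the K562 pools, FTH1 ran from 228 to 3705 rpm with a median of 838, FTL from 144 to 4994 rpm with a median of 909, and TFRC from 0 to 2578 rpm with a median of 544. The other genes were low, with medians of 60.9 rpm for IREB2 (highest 277), 15.2 rpm for SLC11A2 (highest 168) and 0 for ACO1 (highest 31.5). In the 20 libraries of the HEK293 pools, the medians were 115 rpm for FTH1 (21.3 to 492), 15.2 rpm for FTL (0 to 193), 69.5 rpm for TFRC (0 to 430), 12.8 rpm for SLC11A2 (0 to 78.0), 1.41 rpm for ACO1 (0 to 80.7) and 86.9 rpm for IREB2 (0 to 190). As the plot of levels by library shows, ferritin libraries of K562 cells lay above those of HEK293 cells for every RBP. On IREB2 the libraries of the lines overlapped with most RBPs. K562 libraries lay below HEK293 ones with FAM120A (41.3 to 78.4 against 82.8 to 130 rpm), RBFOX2 (30.0 to 46.4 against 75.1 to 101 rpm), EIF3G and ZC3H11A.

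**Figure D1:**
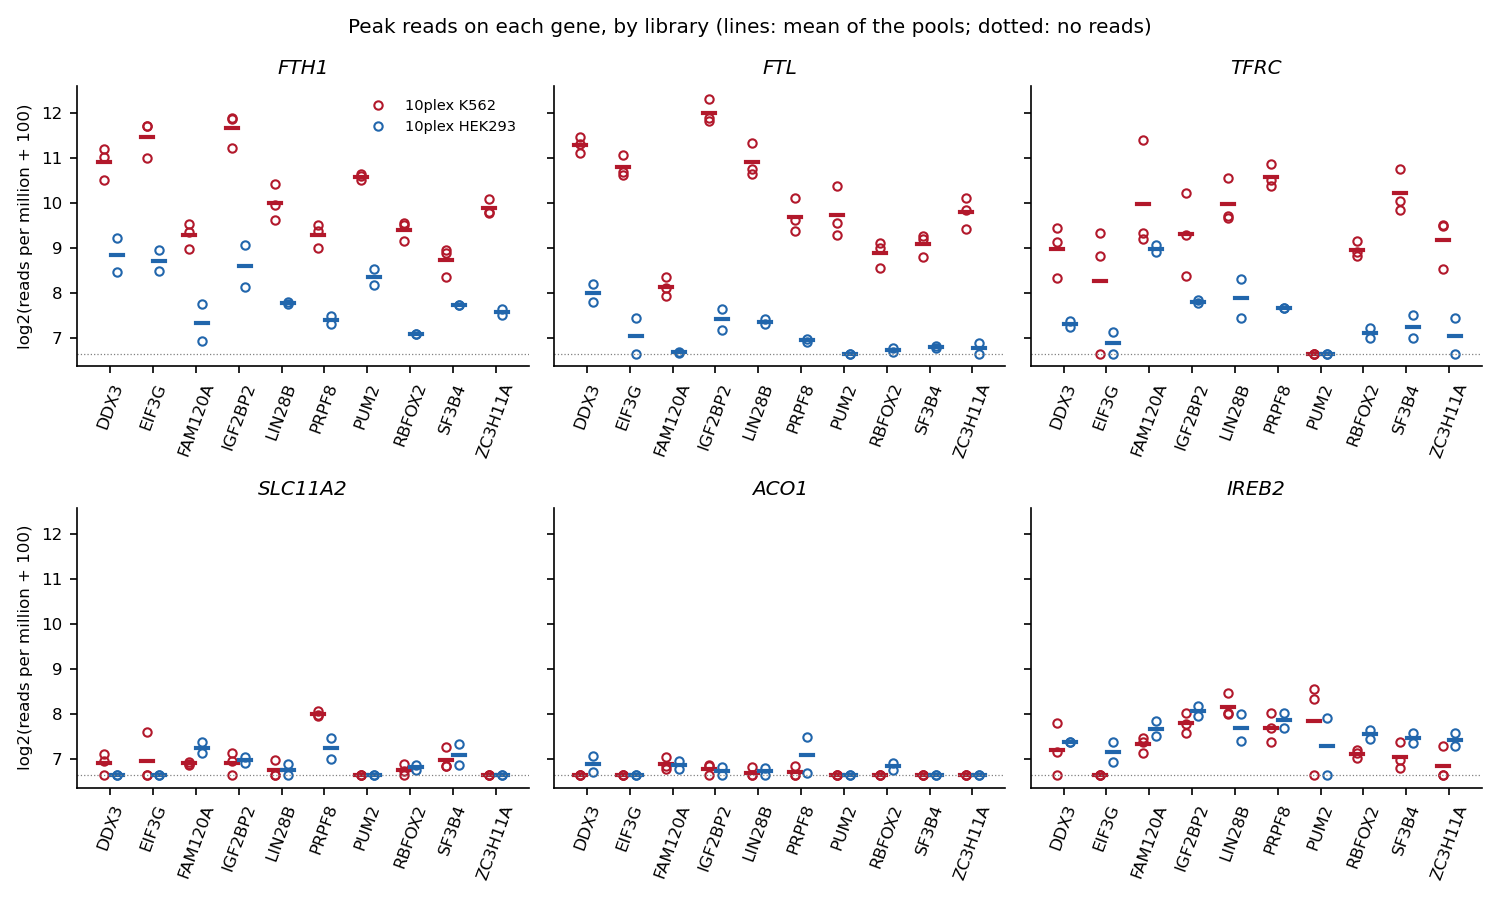
Level of each gene in the 10plex libraries, as log2(rpm + 100) on the y axis, for the 10 RBPs (x axis), with K562 pools in red (n = 3) and HEK293 pools in blue (n = 2). Points are libraries, short lines are means over pools and the dotted line is a level of 0. IGF2BP2 had the highest mean on FTH1 and FTL in K562 cells, PRPF8 on TFRC and SLC11A2.

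The 10plex lets RBPs of 1 tube be compared. Which RBPs crosslinked more to these mRNAs than the other RBPs of the same tube was asked with each RBP against the mean of the other 9, on log2(rpm + 100) with the pool as a block (limma, Benjamini-Hochberg over 12947 genes). In K562 cells 23 of the 60 tests on the 6 genes passed an adjusted p of 0.05 (38.3%), where 23.1% of the tests over all genes did. Of these, 13 were higher (background 13.4%) and 10 lower (9.63%), and the median log2 difference of the 60 was -0.06. The share of all genes called higher differed by RBP, from 3.32% for PUM2 to 39.7% for PRPF8, with 23% for FAM120A. In HEK293 cells, 9 of 60 passed (15%), beside 15.9% of all tests over 15330 genes. Differences are in log2 on the scale with 100 rpm added, which understates those of low genes. Each library is 1 barcode of 1 pool, and nothing in the labels says whether pools came from separate cultures. With the pool as a block, the p-values measure how differences between RBPs vary across these pools. The 10 RBPs of a gene share 1 error, whatever the depth of their libraries.

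On FTH1, the initiation-related RBPs and IGF2BP2 were high and the splicing factors low. IGF2BP2, which binds and stabilizes mRNAs, had 3705, 3649 and 2299 rpm in the K562 pools, and EIF3G, a subunit of the initiation factor eIF3, had 3231, 3270 and 1941 rpm. Both stood above all other RBPs within each pool, with log2 differences of 1.71 ± 0.195 (SE, adjusted p = 6.08e-07) and 1.50 ± 0.195 (adjusted p = 1.16e-05). DDX3, a helicase that acts in translation initiation, followed with 1970, 2250 and 1356 rpm (log2 difference 0.87, adjusted p = 0.00369), a call that was lost without replicate 1 (0.86) or replicate 2 (0.75). SF3B4, a subunit of the U2 snRNP, had the lowest levels at 395, 371 and 228 rpm, below all libraries of the other RBPs (-1.55 ± 0.195, adjusted p = 8.23e-06). FAM120A (-0.92), PRPF8, the core protein of the spliceosome (-0.92), and the splicing regulator RBFOX2 (-0.80) were lower too. FAM120A was no longer called without replicate 2 (-0.71), nor RBFOX2 without replicate 1 (-0.61) or replicate 2 (-0.82), and a PUM2 difference of 0.51 (adjusted p = 0.0486) turned to -0.042 with peaks outside repeats only.

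On FTL, IGF2BP2 was highest, with 3498, 3706 and 4994 rpm, above every library of the other RBPs (2741 rpm at most), and FAM120A, an RNA-binding scaffold protein, was lowest with 177, 144 and 224 rpm, below every other library (at least 277 rpm). The log2 differences were 2.20 ± 0.211 (adjusted p = 4.63e-08) and -2.11 ± 0.211 (adjusted p = 1.96e-08). DDX3 had 2117, 2421 and 2741 rpm (1.40, adjusted p = 5.97e-05). LIN28B, a protein known for blocking let-7 maturation and binding many mRNAs, had 1612, 2465 and 1503 rpm (0.97, adjusted p = 0.00156), and 0.79 without replicate 2, no longer called. EIF3G had 1460, 1538 and 2051 rpm (0.84, adjusted p = 0.00658), and 0.71 without replicate 3, no longer called. RBFOX2 (-1.27) and SF3B4 (-1.05) were lower, the latter not called without replicate 3 (-0.87). In the HEK293 pools DDX3 on FTL had 193 and 122 rpm against at most 99.8 rpm in the other libraries (1.07 ± 0.174, adjusted p = 0.00224). DDX3 (1.00) and EIF3G (0.86) were higher and RBFOX2 lower (-0.94) on FTH1 there (background 9.76% higher, 6.12% lower).

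The position on the ferritin mRNAs separated the RBPs further than the level of the whole gene. The paper selected RBPs with known preferences: DDX3 and EIF3G for 5′ UTRs, LIN28B for the CDS, and FAM120A, IGF2BP2, PUM2 and ZC3H11A for 3′ UTRs. SF3B4 and PRPF8 were selected for sites at 3′ and 5′ splice sites. No share of reads by region over all genes is given here. Whether the placings here and below are particular to these genes was therefore not tested. Regions were tested as gene and region together over 32715 such features, of which 23 belonged to the 6 genes, and 73 of their 230 tests passed (31.7%, background 15.2%), 39 of them higher (10.9%) and 34 lower (4.28%). In the FTH1 5′ UTR, IGF2BP2 (3705, 3442 and 2078 rpm), EIF3G (3231, 3270 and 1941 rpm) and DDX3 (1970, 2134 and 1356 rpm) were higher than the other RBPs, by 2.08, 1.95 and 1.30. All reads of EIF3G on FTH1 lay in peaks centred in the 5′ UTR. LIN28B was lower there (391, 236 and 263 rpm, -1.23) and higher in the CDS, with 364, 734 and 384 rpm against at most 264 rpm in the other libraries (1.99 ± 0.272, adjusted p = 8.97e-06). LIN28B is also the RBP with most of the pseudogene reads, in a CDS where 11.1% of words are unique, and the part of this in its CDS level was not tested. Its excess in the FTH1 3′ UTR (128, 295 and 40.4 rpm, 1.10) fell to 0.10 when touching peaks were counted once and was not called without replicate 2 (0.72).

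In K562 cells the FTL 5′ UTR showed the same RBPs on top and no centred peak of LIN28B. IGF2BP2 had 1428, 1472 and 2914 rpm there, DDX3 1496, 1402 and 2173 rpm and EIF3G 1119, 1256 and 1632 rpm, with log2 differences of 2.41, 2.26 and 1.91. LIN28B had no peak centred in it in any K562 pool, and 3 reads there in HEK293 replicate 2 (12.2 rpm). In the FTL CDS LIN28B had 1491, 2313 and 1503 rpm in the K562 pools (2.32 ± 0.288, adjusted p = 2.26e-06). IGF2BP2 was high along the whole mRNA, with 1725, 1814 and 1635 rpm in the CDS (2.31) and 345, 420 and 445 rpm in the 3′ UTR. In that 3′ UTR only LIN28B also had a peak, in pools 1 and 2 (121 and 152 rpm), and the IGF2BP2 libraries lay above it (2.23 ± 0.137, adjusted p = 3.33e-11). A map of the peaks relative to the IRE loop shows these positions.

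**Figure D2:**
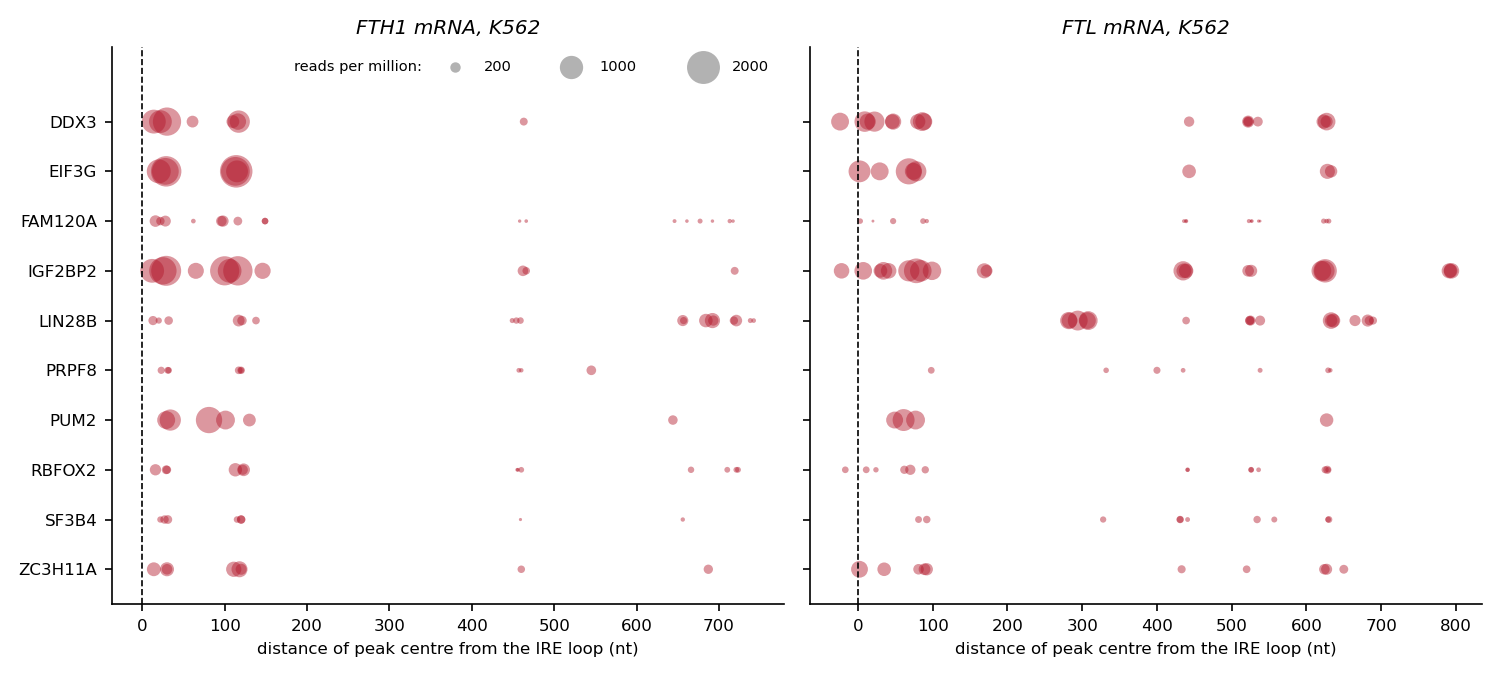
Peaks of the K562 pools on the spliced FTH1 (left) and FTL (right) mRNAs, by the distance of the peak centre from the IRE loop in nt (x axis, dashed line at the loop) and by RBP (y axis); circle area gives rpm. IGF2BP2, DDX3 and EIF3G had large circles both close after the loop and further along the 5′ UTR, and on FTL the LIN28B peaks nearest to the loop lay in the CDS.

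Peaks that overlapped the ferritin hairpins belonged to many RBPs and passed the enrichment limits in few libraries. The authors compared each peak with the complement control (CC), the sum of the other 9 libraries of the pool, and called it enriched at P below 0.001 and a fold above 8. On FTH1, 30 of 124 K562 peaks overlapped the match, 1 in each of the 30 libraries, and none was enriched. Their log2 folds over the CC were 1.91 to 2.65 for IGF2BP2, 1.49 to 2.08 for DDX3 and 0.76 to 1.68 for EIF3G, and -0.80 to -0.64 for FAM120A. On FTL, 13 of 142 K562 peaks from 6 RBPs overlapped it, with DDX3 at 1.95 to 2.65, 1 of the 22 IGF2BP2 peaks among them and none enriched, and in HEK293 cells 11 of 32 did, of which the 3 of DDX3 were enriched (3.24 to 3.57). Since the 30-letter words over these matches are not unique, reads no longer than such a word could not be placed there. Read lengths were not examined, so how far the reads under these peaks reach was not tested.

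The share of a gene's exonic peak reads within the UTR that holds the IRE was compared by exact permutation of the RBP labels within pools (one-sided, higher). On FTL, PUM2 had a share of 90.9% ± 15.7 (SD, 3 pools) in the 5′ UTR against a mean of 42.5% for the others (p = 0.002, adjusted over the 10 RBPs 0.02, exact permutation), from 7, 22 and 11 reads on the gene. The EIF3G share on FTL, 79.3% ± 2.56 (p = 0.026, adjusted 0.13), and the DDX3 share, 69.3% ± 10.7 (p = 0.11, adjusted 0.367), did not pass the exact permutation test. On FTH1, EIF3G had 100% in all pools (exact permutation p = 0.009, adjusted 0.09) and DDX3 98.3% ± 2.97 (exact permutation p = 0.021, adjusted 0.105), so neither passed. LIN28B had the lowest shares, 33.7% ± 13.4 on FTH1 and 0% on FTL.

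Sites enriched in the most pools on the ferritins were a LIN28B site in the FTL CDS, an IGF2BP2 site in the FTL 3′ UTR and PRPF8 sites at introns. The LIN28B site in FTL, chr19:48965778-48965832, was enriched in all 5 pools with a mean fold of 15.5 over the CC, from 67, 130, 108, 12 and 8 reads in its leading peak of K562 replicates 1 to 3 and HEK293 replicates 1 and 2. The IGF2BP2 site in the FTL 3′ UTR, chr19:48966825-48966856, was enriched in the 3 K562 pools (mean fold 14.1), with 65, 124 and 220 reads. The letters at both sites are shown, as they are where these RBPs stood out most on FTL. GGAG, in capitals, is a sequence known to be bound by LIN28 proteins, and it lay past the 3′ edge of the LIN28B peak at this site.
FTL LIN28B site, chr19:48965826-48965855, plus strand: cgaattggccgaGGAGaagcgcgagggcta
FTL IGF2BP2 site, chr19:48966829-48966858, plus strand: taactatcctaacaagccttggaccaaatg

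GGAG, which was chosen after the peaks had been seen, was present in the 61-letter sense windows at 44.6% of all LIN28B peaks in K562 cells and 31.9% of those of the other 9 RBPs, and in HEK293 cells at 44.3% and 34.9%. Of the LIN28B peaks in K562 cells, 6 of 17 on FTL, 10 of 18 on FTH1 and 23 of 53 on TFRC held it, shares around that of all LIN28B peaks. The PUM2 motif (TGTA, any letter, ATA) was present at 6.97% of all PUM2 peaks in K562 cells and 0.626% of the others. None of the 12 PUM2 peaks on FTH1 and FTL there held it.

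On TFRC, FAM120A, which the paper lists among 3′ UTR binders, lay almost wholly in the 3′ UTR. It had 484, 457 and 2554 rpm in the 3′ UTR in the K562 pools, against a mean of 99.8 rpm and at most 781 rpm for the other RBPs (log2 difference 2.53 ± 0.338, adjusted p = 2.39e-06). Pool 3 was well above the others, and without it the difference was 1.98 and still called. No FAM120A peak was centred in the TFRC CDS or 5′ UTR in any of the 5 pools. In K562 cells the 3′ UTR held 96.7% ± 2.04 (SD, 3 pools) of its exonic reads on TFRC and a mean of 18.8% of those of the other RBPs, with EIF3G and PUM2 left out for lack of reads in some pool (exact permutation p = 0.00195, the smallest that 512 arrangements allow, adjusted 0.0156). The HEK293 pools gave 430 and 379 rpm for FAM120A on the whole gene, all of it in the 3′ UTR, against at most 217 rpm for the others (1.69 ± 0.178, adjusted p = 1.19e-05). There the exact permutation test of the share gave p = 0.0204 (adjusted 0.143), and with 2 pools it cannot pass an adjusted p of 0.05.

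Within the TFRC 3′ UTR the FAM120A reads lay mostly ahead of the first IRE match. The 943 nt before it held 2160 of 3576 reads in the K562 pools (60.4%, 229 reads per 100 nt), the 533 nt from the first to the last match 868 (24.3%, 163 per 100 nt) and the 1185 nt after the last 548 (15.3%, 46.2 per 100 nt). Enriched peaks numbered 14 of 22, 7 of 14 and 0 of 9 in these stretches, and in HEK293 cells 18 of 19, 4 of 6 and 2 of 5, so that both lines had fewer toward the 3′ end. These shares sum the pools, and a read in touching peaks counts in each, so no interval is given. RBFOX2 and LIN28B showed the opposite order in K562 cells, with 91.5% of 164 and 93.7% of 111 reads after the last match. Over the matches themselves lay 11 of 474 K562 peaks, 7 of FAM120A (3 enriched), 3 of IGF2BP2 and 1 of EIF3G, and 8 of 155 HEK293 peaks, 4 of FAM120A (3 enriched). The FAM120A log2 folds there were 2.20 to 3.73 at match 1 and 2.85 to 3.60 at match 2 in K562 cells, and no peak overlapped match 4.

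**Figure D3:**
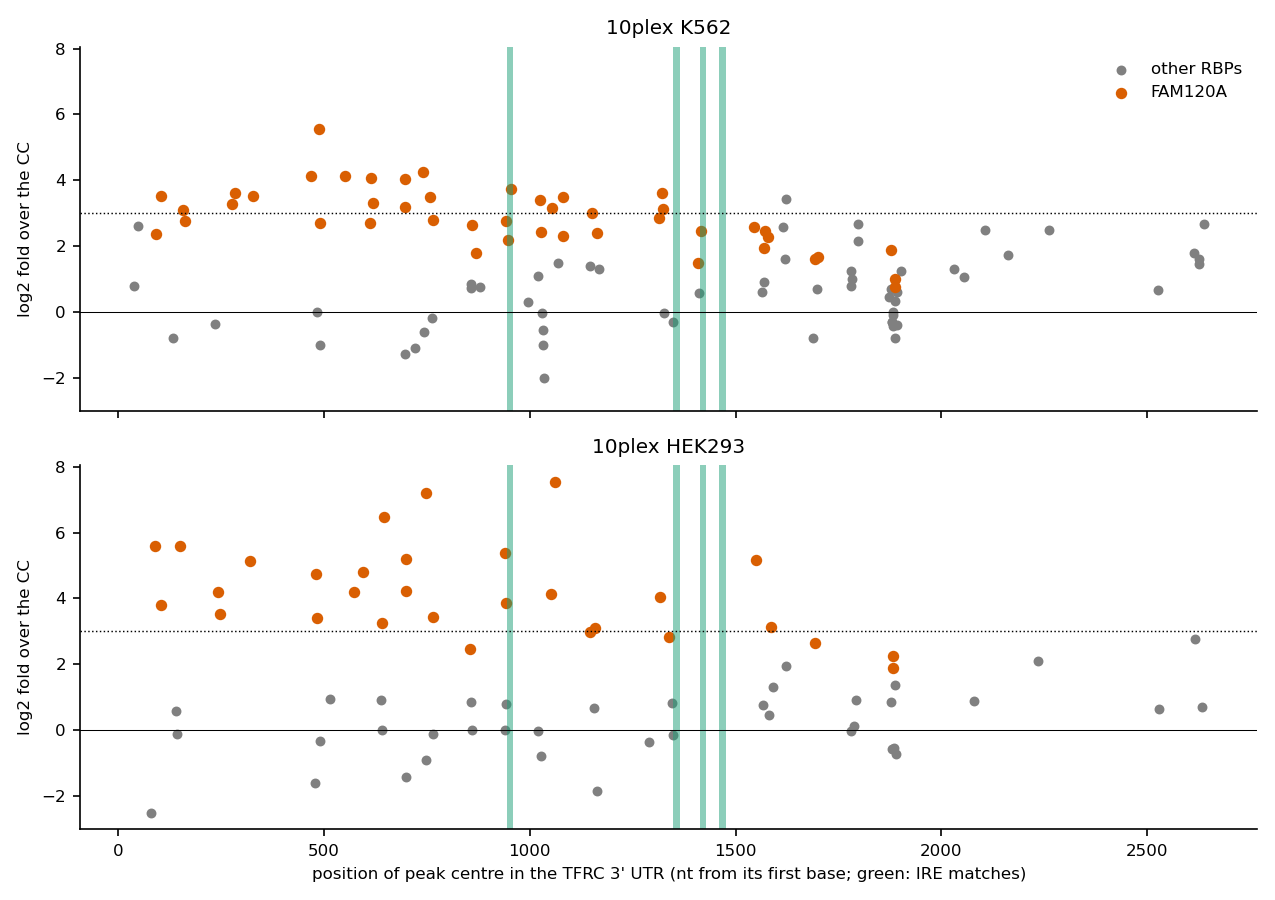
Log2 fold over the CC (y axis) of each peak in the TFRC 3′ UTR, by the position of its centre in nt from the first base of the UTR (x axis), in K562 (top) and HEK293 (bottom) pools; green bands are IRE matches and the dotted line is the fold limit of 8. FAM120A peaks (orange) exceeded the limit mainly before the first match, and none did after the last in K562 cells.

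FAM120A had 2 sites on TFRC enriched in all 5 pools, chr3:196051143-196051272 (mean fold 23.9), at -194 nt from the nearest match, and chr3:196051586-196051879 (mean fold 16.5), at -669 nt. Peaks of the first site held 82, 144 and 220 reads in the K562 pools and 49 and 81 in the HEK293 pools, taking the first of 1 or 2 peaks of each pool. The 144-read peak of K562 replicate 2 had a fold of 6.87 and did not pass, while the second peak of that pool did (9.10). A stretch of this site is shown, since no motif of FAM120A was searched.
TFRC FAM120A site, chr3:196051173-196051202, minus strand: acattgaaagagaaccagtttcaggtgttt

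At the level of the whole TFRC gene, PRPF8 led in K562 cells with 1353, 1756 and 1219 rpm (1.53 ± 0.356, adjusted p = 0.00114), overlapping single libraries of FAM120A, SF3B4 and LIN28B. PRPF8 was called higher on 39.7% of all genes there. SF3B4 had 823, 1637 and 951 rpm (1.13, adjusted p = 0.0374), a call that leaving out any replicate ended (0.93 to 1.42). PUM2 had no peak on TFRC in any pool of either line. EIF3G had 0, 541 and 353 rpm (-1.04, adjusted p = 0.0352), with -0.44 and no call without replicate 1. In the TFRC CDS LIN28B had 243, 287 and 769 rpm (1.28, adjusted p = 0.000685), and 0.90 without replicate 3, no longer called.

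**Figure D4:**
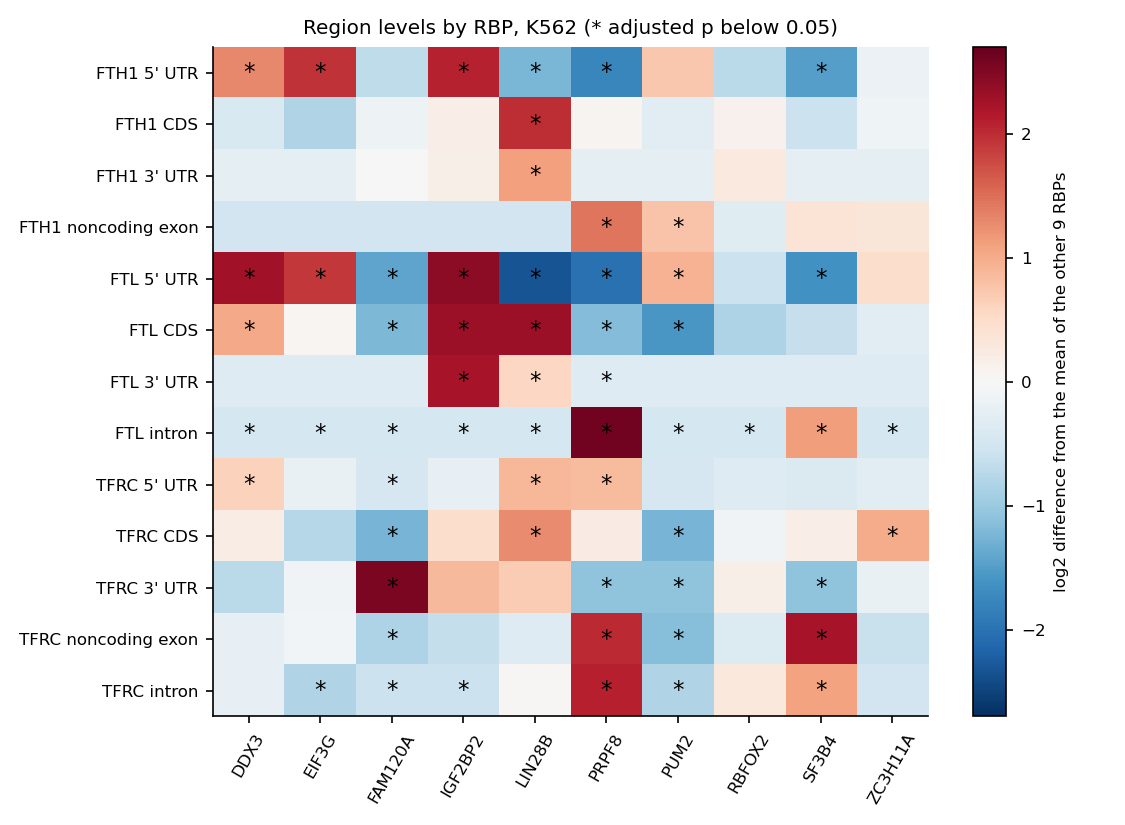
Log2 difference of each RBP (x axis) from the mean of the other 9 for the regions of FTH1, FTL and TFRC (y axis) in K562 cells, by colour, with asterisks at an adjusted p below 0.05. FAM120A stood out in the TFRC 3′ UTR (2.53), IGF2BP2, DDX3 and EIF3G in the ferritin 5′ UTRs, LIN28B in their CDS, and PRPF8 in introns.

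Intronic PRPF8 reads on these genes sat near 5′ splice sites, and intronic SF3B4 reads on TFRC and IREB2 sat near 3′ splice sites. Only peaks centred in an intron were placed, so the intron side was set by that choice. PRPF8 also had exonic peaks. In the K562 pools 31.0%, 44.2% and 29.2% of its FTH1 reads lay in the 5′ UTR. In the HEK293 pools 49.1% and 66.1% of its TFRC reads lay in the CDS. Intronic regions here include exons of noncoding transcripts of the gene, such as retained introns, which cover introns of the reference transcript. On TFRC in K562 cells, 39 of 52 intronic PRPF8 peaks, with 1988 of 2106 reads, lay within 100 nt of a 5′ splice site, at a median of 11 nt into the intron, over 15 introns. None lay at a 3′ splice site. Of the SF3B4 peaks, 36 of 63, with 871 of 1041 reads, lay at 3′ splice sites, at a median of 31 nt before the exon, over 13 introns, and 30 of the 36 were enriched. PRPF8 was higher than the other RBPs in the TFRC intron (504, 698 and 383 rpm, 2.11 ± 0.185, adjusted p = 2.79e-09) and noncoding exon (502, 765 and 614 rpm, 2.01). The second of these turned to -0.33 when peaks were assigned to regions by overlap, which gives such peaks to the CDS exon they touch. SF3B4 had 587, 1118 and 552 rpm in the noncoding exon (2.22 ± 0.235, adjusted p = 3.59e-07).

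The same placing of intronic PRPF8 peaks held on FTL, FTH1, IREB2 and SLC11A2. All 10 intronic PRPF8 peaks on FTL (1072 reads), all 8 on FTH1 (482 reads) and all 20 on IREB2 (122 reads) lay at 5′ splice sites in K562 cells, as did 9 of 13 on SLC11A2 (232 of 252 reads). In the FTL introns PRPF8 had 920, 437 and 469 rpm and SF3B4 167, 109 and 260 rpm, with no peak of the other 8 RBPs (2.60 ± 0.122, adjusted p = 2.35e-13, and 1.14 ± 0.122, adjusted p = 4.26e-07). All 6 intronic SF3B4 peaks on IREB2 lay ahead of 3′ splice sites, at a median of 41 nt. The placing of SF3B4 was not the same on every gene. On FTL 5 of its 7 intronic peaks (116 of 148 reads) lay at 5′ splice sites, and its leading site on SLC11A2, chr12:51005623-51005732 (4 pools, mean fold 35.2), lay at -250 nt from the nearest 3′ splice site.

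**Figure D5:**
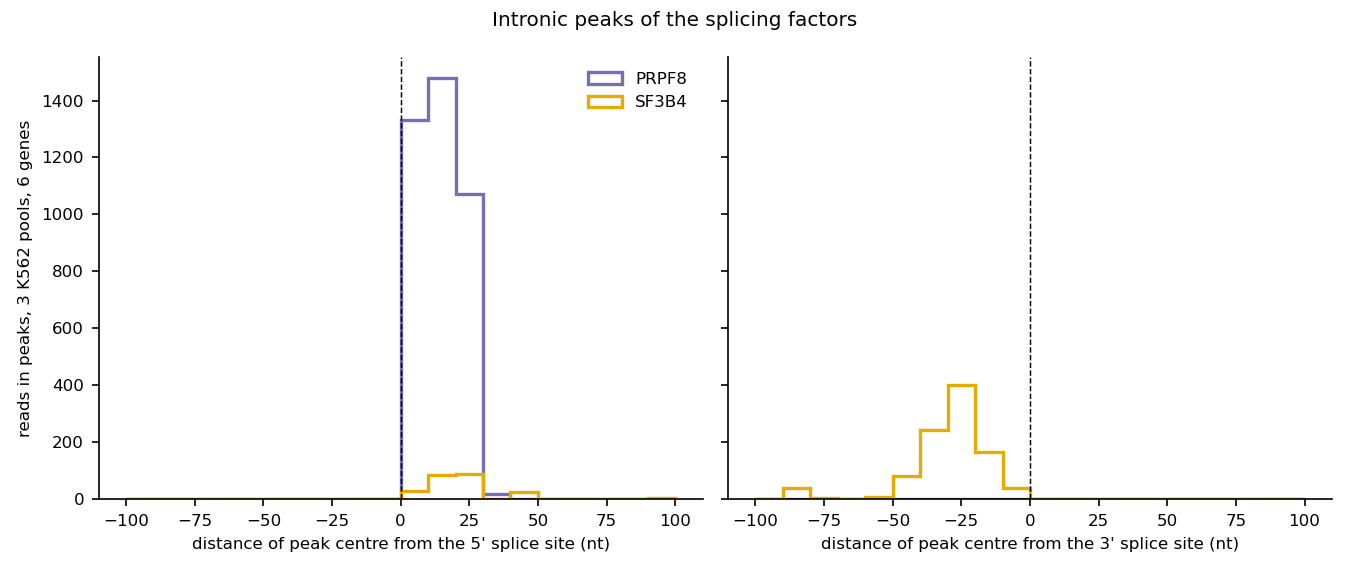
Reads in intronic peaks of PRPF8 and SF3B4 on the 6 genes in the 3 K562 pools (y axis), by the distance of the peak centre in nt from the nearest 5′ (left) or 3′ (right) splice site (x axis), in bins of 10 nt. Nearly all of these intronic PRPF8 reads lay from the first base of the intron to 30 nt into it, and most of these SF3B4 reads lay ahead of the 3′ splice site.

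Exon-intron borders are shown for the PRPF8 site enriched in the most pools on each of FTH1, FTL, TFRC and SLC11A2, taking the higher mean fold where sites tied, with the first letters of the intron, GT, in capitals. The FTH1 site (intron 3) was enriched in 4 pools with a mean fold of 10.3, the FTL site (intron 2) in 3 pools (10.4), the TFRC site (intron 6) in 5 pools (16.5) and the SLC11A2 site (intron 3) in 5 pools (20.7).
FTH1 intron 3, chr11:61964967-61964996, minus strand: tgacccccatGTgagtattggaaccccagg
FTL intron 2, chr19:48965907-48965936, plus strand: ggacatcaagGTaactagtgtgtgggtaat
TFRC intron 6, chr3:196071376-196071405, minus strand: aacagttactGTaagtaaagcaaaacagtg
SLC11A2 intron 3, chr12:51008456-51008485, minus strand: tgaggaggagGTtagtatcaggtccttgga

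For SLC11A2, PRPF8 was the leading RBP, and it was called higher on 39.7% of all genes in K562 cells. It had 151, 168 and 150 rpm in the K562 pools against at most 93.2 rpm in the other libraries, which was a single 3-read peak of EIF3G (1.17 ± 0.144, adjusted p = 6.48e-07). In the HEK293 pools PRPF8 (78.0 and 28.5 rpm, 0.41, adjusted p = 0.0177) and FAM120A (65.8 and 39.7 rpm, 0.42, adjusted p = 0.0121) were higher than the mean of the others. There PRPF8 was called higher on 21.1% of all genes and FAM120A on 20.2%. Peaks in the SLC11A2 3′ UTR came mainly from FAM120A, with 9.53, 12.3 and 22.9 rpm in the K562 pools (0.19, adjusted p = 2.31e-06) and 63.9 and 28.4 rpm in the HEK293 pools. These levels are low, and 4.3% of unchanged regions of any level were called in a simulation, all higher. No peak of any library overlapped its IRE match.

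ACO1, cytosolic aconitase and iron-regulatory protein 1, had the fewest reads. In K562 cells FAM120A had 10.6, 31.5 and 14.5 rpm, all in the 3′ UTR, against at most 16.2 rpm in the others (0.22 ± 0.045, adjusted p = 0.000526). This rests on 10, 69 and 12 reads. In a simulation of the FAM120A comparison 1.89% of unchanged genes of any level were called, all of them higher, and 0.199% of those with a mean of at least 100 rpm, which ACO1 does not reach. In HEK293 cells PRPF8 had 2.82 and 80.7 rpm, most of the latter (65.5 rpm) in the CDS. The site enriched in the most pools was an intronic RBFOX2 site at chr9:32439354-32439414, with 5 and 7 reads in the HEK293 pools (mean fold 16.9) and GCATG, the RBFOX motif, in capitals.
ACO1 RBFOX2 site, chr9:32439352-32439381, plus strand: ggtttaggtaatGCATGcgaaattaaccac

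Of the 12 RBFOX2 peaks on ACO1 in the HEK293 pools 7 held GCATG, which was present at 20.1% of all RBFOX2 peaks there and 4.79% of those of the other RBPs (17.2% and 4.46% in K562 cells). On IREB2 7 of 45 held it, on TFRC 5 of 22, and none of the 12 on FTH1 and FTL did. In singleplex ABC of RBFOX2, levels were 17.7 and 18.7 rpm on FTH1, 4.54 and 7.73 rpm on FTL, 89.3 and 73.7 rpm on TFRC, 12.1 and 11.4 rpm on SLC11A2, 13.2 and 4.09 rpm on ACO1 and 154 and 86.4 rpm on IREB2. These lay near the RBFOX2 libraries of the HEK293 pools on IREB2 (101 and 75.1 rpm) below them on FTH1 (36.5 and 36.4 rpm) and above them on TFRC (48.8 and 27.5 rpm), with no test made between the formats.

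IREB2, iron-regulatory protein 2, had LIN28B as its leading RBP in the CDS, with the most enriched sites at 1 exon junction. LIN28B had 162, 253 and 155 rpm on the gene in the K562 pools (0.88 ± 0.245, adjusted p = 0.0121), overlapping 2 libraries of PUM2 (226 and 277 rpm, from 3 and 5 reads), and lost the call without replicate 1 (0.87) or replicate 2 (0.81). In the IREB2 CDS it had 162, 211 and 135 rpm against at most 42.7 rpm in the others (1.33 ± 0.077, adjusted p = 9.55e-12). The HEK293 pools gave 84.9 and 44.8 rpm there, with at most 32.4 rpm in the other libraries. Peaks on either side of intron 8, at chr15:78473370-78473382 and chr15:78476185-78476219, were enriched in all 5 pools, with mean folds of 49.5 and 65.8. They held 10, 12, 5, 4 and 4 reads and 11, 13, 7, 8 and 4 reads in K562 replicates 1 to 3 and HEK293 replicates 1 and 2. A read spliced across the junction could count in both peaks, and so more than once in the CDS level, which was not tested. In the spliced mRNA their centres are at bases 1141 and 1160, so the letters across the junction of exons 8 and 9 are shown, with GGAG in capitals.
IREB2 LIN28B site, spliced, from chr15:78473372 to chr15:78476207, plus strand: tattacaaagcacctcaggcaagtaGGAGt

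EIF3G had no peak on IREB2 in the K562 pools, where 3 reads of its 123695 over the pools would be 24.3 rpm. It had 65.9 and 22.0 rpm in the HEK293 pools, from 5 and 3 reads, too few to read as a difference between the lines. In the IREB2 3′ UTR IGF2BP2 had 63.7, 112 and 140 rpm in K562 cells (0.68, adjusted p = 0.0424). An intronic RBFOX2 site in intron 2, chr15:78461552-78461735, was enriched in all 5 pools (mean fold 17.9).

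Between the cell lines the ferritins differed most. For each RBP, K562 minus HEK293 was tested over 17213 genes without a block, since each pool belongs to 1 line. Of 60 tests on the 6 genes 28 passed (46.7%, background 18.3%), 27 of them higher in K562 cells (background 4.13%) and 1 lower (14.2%). FTL was higher in K562 cells with all 10 RBPs, by 1.46 (FAM120A, 182 against 1.88 rpm) to 4.60 (IGF2BP2, 4066 against 72.0 rpm, SE 0.288, adjusted p = 2.75e-14). FTH1 was higher with all 10, by 1.00 (SF3B4, 331 against 113 rpm) to 3.06 (IGF2BP2, 3218 against 309 rpm, SE 0.311, adjusted p = 2.46e-09). With SF3B4 the FTH1 call was lost without K562 replicate 1 or 2 or either HEK293 replicate (0.89 to 1.00). The exact permutation of 3 against 2 pools, which cannot go below p = 0.1, was not run for each gene. TFRC was higher with PRPF8 (1443 against 103 rpm, 2.91, adjusted p = 0.000155), SF3B4 (2.97), ZC3H11A, LIN28B, RBFOX2 and DDX3 (1.65, the smallest of these), and did not pass with FAM120A (547, 486 and 2578 rpm against 430 and 379 rpm, 1.00, adjusted p = 0.258), where K562 replicate 3 stood well above the other libraries. IREB2 passed with none of the RBPs, in a comparison that recovered 11% of simulated 4-fold changes, SLC11A2 with PRPF8 alone (157 against 53.3 rpm, 0.76, adjusted p = 0.00287), which was lost without HEK293 replicate 2 (0.53). ACO1 was lower in K562 cells with PRPF8 (-0.38, adjusted p = 0.0174), a difference that turned to 0.026 without HEK293 replicate 2, whose 80.7 rpm it rested on. RNA levels of the 2 lines were not measured here, so more binding per mRNA and more mRNA cannot be told apart. No pool held both lines.

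Enriched peaks, by the limits of P and fold over the CC, made up 18.9% of the listed peaks on these genes in K562 cells (166 of 880), against 20.5% of all peaks, and 18.8% in HEK293 cells (94 of 500), against 14.8%, with no test made. The RBPs differed widely. On the 6 genes in K562 cells, PRPF8 had 55 of 149 enriched (36.9%, against 22.5% of all its peaks), SF3B4 42 of 114 (36.8%, 30.9%), LIN28B 25 of 101 (24.8%, 37.6%) and FAM120A 21 of 145 (14.5%, 18.6%), the last all on TFRC. IGF2BP2, in spite of its high ferritin levels, had 13 of 118 (11%, 12.1%), DDX3 3 of 72 (4.17%, 21.4%), EIF3G 0 of 24 where 32.3% of all its peaks were enriched, and ZC3H11A 0 of 44 (22.6% of all). By gene, enriched shares in K562 cells were 8.82% for FTH1, 9.86% for FTL, 20.2% for TFRC, 26.4% for SLC11A2, 17.6% for ACO1 and 28.9% for IREB2. FTH1 was thus lowest in K562 cells and also in HEK293 cells (5.41%). In singleplex RBFOX2, enriched over an external RNA background, 6 of 118 and 4 of 55 peaks passed, where 8.63% and 12.5% of all peaks did, 5 and 3 of them on IREB2 and 1 and 1 on TFRC. In singleplex SLBP, a histone mRNA binder, all 7 and all 5 peaks on these genes passed, where 37.8% and 99.9% of all peaks did. SLBP had 489 and 312 rpm on FTH1, from 41 and 6 reads, and 655 and 573 rpm on FTL, from 55 and 11 reads. These ferritin levels lay within the range of the K562 pools. The contrast of an RBP with the other 9 differed between the lines in 7 of 60 tests on the 6 genes, a share close to the background of 9.57%. Of these 7, 5 were on the ferritins, with no test made of that split.

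Other genes of iron handling were taken from a list of 33 genes in 7 roles, of which 25 could be tested in K562 cells. Of their 250 tests 35 were higher and 32 lower (26.8%, beside the background of 23.1%). In HEK293 cells 27 were higher and 13 lower of 230 (17.4%, background 15.9%), and between the lines 34 were higher in K562 cells and 33 lower of 270 (24.8%, background 18.3%). Among the storage genes and chaperones, 3 of 4 could be tested. NCOA4, the receptor that takes ferritin to the lysosome, had 966, 1495 and 1346 rpm with FAM120A, above all other RBPs (504 rpm at most, 2.89 ± 0.272, adjusted p = 7.48e-09). PCBP2, an iron chaperone that also binds RNA, was higher with EIF3G (2921, 4201 and 1919 rpm, 2.25), as was PCBP1 (2.15).

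Of the uptake genes 3 of 5 could be tested, and TFR2, the second transferrin receptor, was higher with PRPF8 (301, 356 and 230 rpm, 1.31) and SLC39A14, a metal importer, with FAM120A (0.96). In K562 cells PRPF8 was called higher on 39.7% and FAM120A on 23% of all genes. All 9 genes of mitochondrial iron use could be tested, and 15 of their 90 tests were higher (background 13.4%) and 14 lower (background 9.63%). SLC25A37, mitoferrin, which carries iron into mitochondria of erythroid cells, had 1174, 1801 and 1526 rpm with ZC3H11A (2.06), above all other RBPs (844 rpm at most). The 6 other mRNAs known to hold an IRE had 6 of 60 tests higher and 6 lower, with CDC14A higher with PRPF8 (0.97).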

How the data were processed

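Per the labels and methods, the authors extracted molecular identifiers, trimmed adapters (cutadapt 2.8), split reads by antibody barcode, removed repeat and multimapped reads, aligned to GRCh38 (STAR 2.7.6) and called peaks with CLIPper in each library. The deposited files list merged peaks with a log2 fold and a p-value, or its −log10, against the CC or an external RNA background. Reads per peak were recovered here from the deposited log2 fold (99.4% to 100% whole). CC reads came from the deposited fold over the CC in K562 replicate 3 (98.3% to 99.99% whole). In the other pools they were solved from the deposited chi-squared values, so CC folds and enriched calls there are reconstructions. Of these CC reads, 76.7% to 94.5% were whole in K562 replicates 1 and 2, and 59.6% to 81.1% in HEK293 cells. In a simulation on K562 replicate 3, 90.9% to 97.6% of CC reads were equal. Peaks were assigned with GENCODE 44, and touching peaks each count their reads. The library's RBP was read from file names. Some listed genes are not reported here.

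Genes with a peak in at least 3 libraries were tested on log2(rpm + 100), pool as a block (limma 3.58.1, R 4.3.3, Benjamini-Hochberg). In simulated data, 4-fold changes were recovered at 51% (K562), 29% (HEK293), 56% (regions) and 11% (K562 against HEK293), and 4.3% of unchanged regions were called, all higher. The members and lists were chosen with earlier results of these data known. Named sites were those enriched in the most pools, then by mean fold. Alternatives were pseudocounts, filters, peak handling, replicate block, leaving out a replicate and, added after seeing the data, the pool share as depth.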

Additional observations from a re-analysis of the deposited data

Results flagged for a closer look

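For 7 of 60 contrasts (an RBP against the mean of the other 9) the difference between the cell lines passed the limma test. That share is close to the background of 9.57% over all genes. On FTL the contrast differed by -1.71 with FAM120A (K562 -2.12, HEK293 -0.40, adjusted p = 7.27e-05), by 1.78 with IGF2BP2 (2.20 and 0.41, adjusted p = 0.000143) and by -0.94 with RBFOX2 (-1.27 and -0.34, adjusted p = 0.0239). On FTH1 it differed by 0.98 with IGF2BP2 (adjusted p = 0.0448) and by -1.32 with SF3B4 (-1.55 and -0.23, adjusted p = 0.0056). On SLC11A2 it differed by 0.77 with PRPF8 (1.17 and 0.41, adjusted p = 0.0119). On TFRC it differed by -1.94 with PUM2 (-2.84 and -0.90, adjusted p = 0.00753), where PUM2 was listed at 0 in both lines, so the value reflects the levels of the other RBPs. Ferritin levels were also lower in HEK293 cells, nearer to the 100 rpm added before the log, and the part of this in the differences was not tested.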

How the results depend on the processing

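Of the calls by RBP, 11 of 23 in K562 cells, 6 of 9 in HEK293 cells and 20 of 28 between the lines held under every setting, as did 23 of 39 region calls of at least 1 in log2. The 23 calls in K562 cells became 16 to 20 without 1 replicate, 20 with no replicate block and 29 with the pool share as depth. The 9 in HEK293 cells became 4 with a mean of at least 100 rpm, 17 with the pool share and 8 with no replicate block, and could not be fitted without a replicate, since no residual degrees of freedom remain. The 73 region calls became 48 with that mean filter, 68 with no replicate block and 44 to 62 without 1 replicate (44 without replicate 2). The 28 between the lines became 29 with the pool as a random replicate block and 23 to 28 without 1 replicate. The 260 enriched peaks became 105 under stricter limits, 496 at any fold, 846 over the external background, 199 by exon centre and 202 to 221 without 1 replicate. Both UTR share calls, PUM2 on FTL and FAM120A on TFRC, were lost without any 1 replicate (0 to 0) and none was made in HEK293 cells (0), but with 2 pools this test cannot pass an adjusted p of 0.05. Directions turned for PUM2 on FTH1 (-0.042 outside repeats, -0.22 with the pool share), PRPF8 in the TFRC noncoding exon (-0.33) and the FTL CDS (0.26) by overlap, and PRPF8 on ACO1 between the lines (-0.787 to 0.026 without 1 replicate, the highest without HEK293 replicate 2). The cause was not tested.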
